A study of Mus musculus with 16 samples.

Results

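The 34 genes described here are interferon-stimulated genes outside the Oas family, measured in mouse subchondral bone, the bone plate under joint cartilage, after knee destabilization or a sham operation. They were chosen by gene name, not by their values: every probe named for a member was taken, and where a gene had several probes the brightest was used. All 34 were on the array, all 34 passed the filter on dim probes, and they are 34 of 28251 genes tested. Of the 56 member probes 53 passed, and 33 members were well above background on all 16 arrays (*Ifi44* on 15).

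Osteoarthritis had been induced in male wild-type C57BL6 mice aged 10 to 12 weeks by destabilization of the medial meniscus (DMM), in which the ligament that tethers the medial meniscus to the tibia is cut. Sham mice had the same ligament exposed but left intact, and both operations were done on both knees. Bone of the medial tibial plateau was laser micro-dissected from 10 µm cryosections of decalcified tibial epiphyses, and RNA pooled from the sections of 1 knee of each mouse (100 ng) was labelled for each array. The 4 groups were sham and DMM mice killed 1 or 6 weeks after surgery, with 4 arrays each, and the bone holds marrow spaces beside bone cells. RNA in bulk tissue does not separate fewer cells of a type from less RNA per cell.

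Cells that detect viral or self nucleic acids, or that receive type I interferon from neighbours, switch on these genes through a transcription factor complex that holds Stat2 and Irf9 and binds the interferon-stimulated response element (ISRE). Interferon-gamma acts through a second element, GAS. The products restrict viruses, sense RNA and DNA, modify proteins with Isg15, attract T cells and feed back on the pathway. In bone, interferon is known as a brake on osteoclast formation, and macrophages and other marrow cells are a known source of these transcripts.

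The promoters of the members were searched for ISRE and GAS, and not every member with a promoter window carried a match. RefSeq promoter windows of assembly GRCm38.p6, from 250 bases before to 50 bases after each gene start, were given for 26 of the 34 members. The ISRE core GAAANNGAAA, searched on both strands, was in the windows of 14 of these 26 genes (53.8%), against 3.99% of the 27025 genes in the table. GAS, searched as TTCNNNGAA on both strands, was in 7 of the 26 (26.9%), against 9.55% of all genes. A match is only a match of letters. The windows below are 80 bases, written 5′ to 3′ along the gene's strand, with ISRE core matches in capitals (GAAA...GAAA, or TTTC...TTTC where the match is on the opposite strand). *Isg15*, *Rsad2* and *Trim30a* are shown because the comparison of times and the marker relations below turn on them, *Ifit1* and *Ifit3* as neighbours with the same pair of decamers, *Bst2* for its overlapping matches, and *Cxcl10* for its spread between arrays.

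Isg15, chr4:156200840-156200919, minus strand: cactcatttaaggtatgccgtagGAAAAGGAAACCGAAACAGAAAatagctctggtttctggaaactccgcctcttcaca
Rsad2, chr12:26456528-26456607, minus strand: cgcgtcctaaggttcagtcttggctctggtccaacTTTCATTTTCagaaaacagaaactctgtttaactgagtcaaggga
Trim30a, chr7:104465194-104465273, minus strand: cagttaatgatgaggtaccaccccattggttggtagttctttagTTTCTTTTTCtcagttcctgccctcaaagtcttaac
Ifit1, chr19:34640769-34640848, plus strand: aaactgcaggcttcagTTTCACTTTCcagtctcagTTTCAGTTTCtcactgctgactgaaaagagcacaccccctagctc
Ifit3, chr19:34583372-34583451, plus strand: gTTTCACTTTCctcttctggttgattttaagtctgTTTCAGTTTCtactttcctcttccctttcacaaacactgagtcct
Bst2, chr8:71537552-71537631, minus strand: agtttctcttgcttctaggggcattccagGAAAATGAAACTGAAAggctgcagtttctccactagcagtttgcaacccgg
Cxcl10, chr5:92349058-92349137, minus strand: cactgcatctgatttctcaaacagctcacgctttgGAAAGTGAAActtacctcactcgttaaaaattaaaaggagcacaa

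*Isg15* carried 3 overlapping ISRE cores, the nearest beginning 66 bases before the gene start. *Bst2* carried 2 overlapping cores, the nearest 124 bases before the start. *Ifit1* and *Ifit3* each carried TTTCACTTTC and TTTCAGTTTC. *Rsad2*, *Trim30a* and *Cxcl10* carried 1 core each in the window shown, beginning 120, 36 and 213 bases before the start.

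Levels are log2 of the background-corrected, detrended signal minus the array's 75th percentile, so a level of 1 is a signal 2 times the 75th percentile. Probes differ in brightness, so levels are compared between arrays for a gene and not between genes. Differences were tested with limma in 1 fit of the 4 groups, with Benjamini-Hochberg adjustment over the 28251 genes and a threshold of 0.05 on the adjusted p. The labels say that each array holds RNA of 1 mouse.

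Array 2 of the 6-week sham group stood apart in these genes, and in many other genes too. The mean over the 34 members on the 4 sham arrays was 0.92, 1.01, 1.09 and 1.20 at 1 week, and 0.92, -0.36, 1.18 and 1.06 at 6 weeks. The mean on the 4 DMM arrays was 1.13, 0.86, 0.99 and 1.06 at 1 week, and 1.08, 1.01, 0.53 and 0.92 at 6 weeks. On this array 30 of 34 members had their lowest level of all 16, against 26.8% of all genes tested, and 33 of 34 lay below their mean over the other 15 arrays. It also held the highest level of 35.4% of all genes tested, and of 0% of the members. The median member was 1.37 lower there on the log2 scale, while the median of all genes was 0.19 higher. The exceptions to the lowest level were *Irf1*, *Zbp1*, *Ifi44* and *Eif2ak2*. DMM array 3 at 6 weeks was next lowest, with 33 of 34 members below their own 16-array mean. These counts use the brightest probe of each gene. In sham mice most other passing probes of the members were also lower at 6 weeks than at 1 week. Those of *Irf7*, *Parp14* and *Mx2* gave differences of -0.006, 0.11 and 0.50, against -0.38, -0.54 and -0.31 for the probes used.

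The same sham array was the dimmest of the series, with a 75th percentile of signal of 329 against 471 to 873 on the others. On it the 8 chondrocyte markers were all above their mean over the other arrays, and their mean level was 1.82 against -1.79 to 1.03 elsewhere. DMM array 3 at 6 weeks was the array with the chondrocyte mean of 1.03. Of the 13 macrophage and monocyte markers measured, 11 were lower on the sham array, with a mean of 2.33 against 2.10 to 3.55 elsewhere, and 7 of 8 erythroid markers were lower (mean 3.34 against 2.37 to 5.27). Of the 13 neutrophil markers 10 were lower there (mean 6.14 against 5.96 to 7.01). The mean of 8 endothelial markers was 0.85, below the 0.97 to 1.80 of the other arrays, with 5 of the 8 lower. Markers of osteoblasts and osteocytes were present on all arrays, with means of 3.95 to 5.41. All 8 erythroid and all 13 macrophage markers, and 6 of the 8 chondrocyte markers, were above background on all 16 arrays. The part of cartilage, marrow or vessel content or brightness in the low member levels was not tested. Results that this array changes are given below with and without it.

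**Figure D1:**
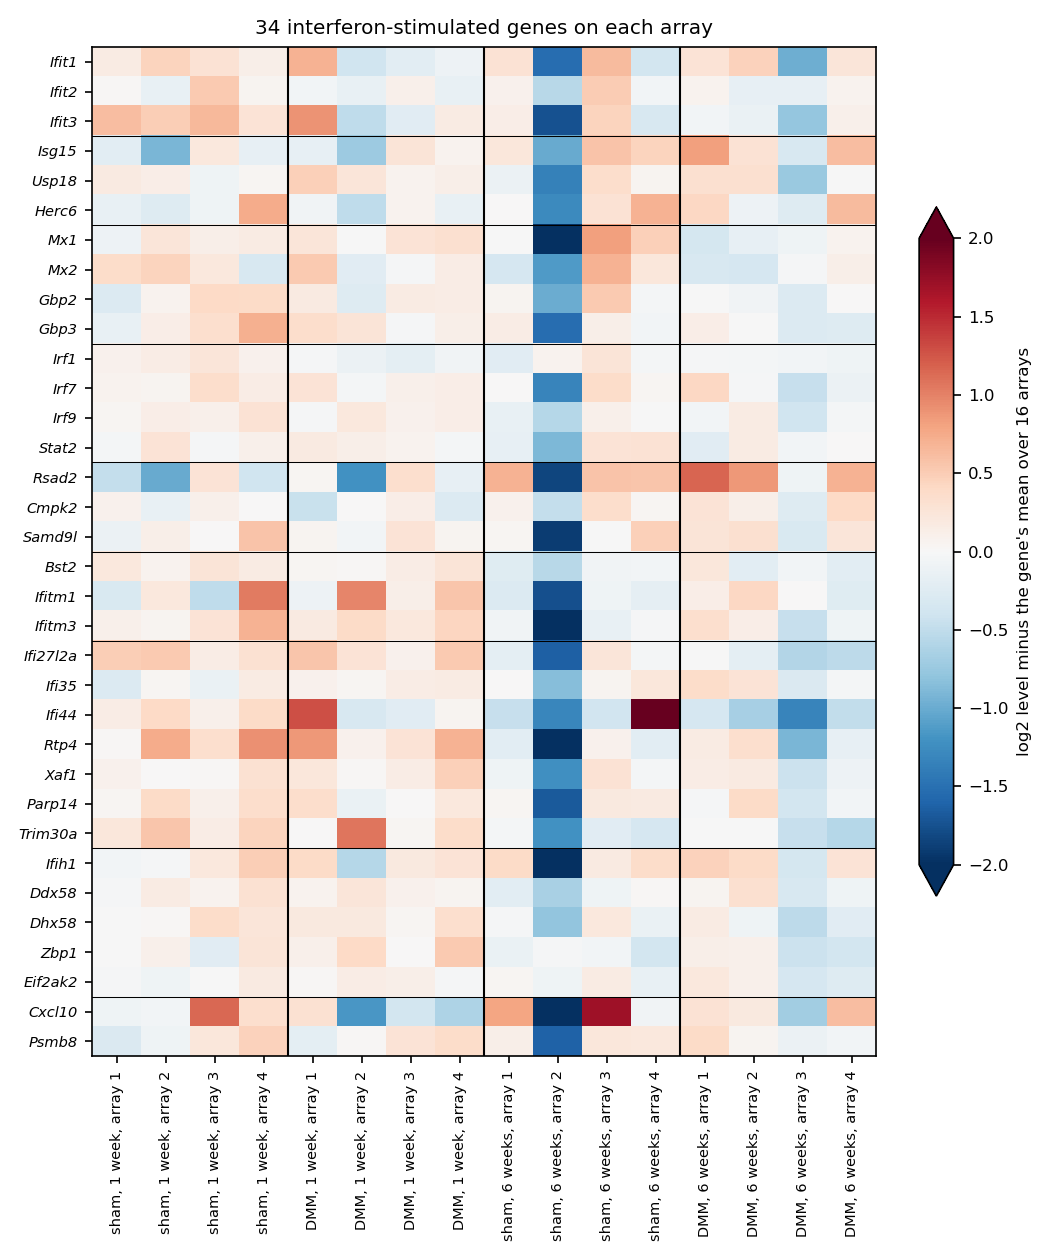
Each cell of this heat map is the log2 level of a member (rows, grouped by role, with lines between roles) on an array (columns, 4 per group) minus that gene's mean over the 16 arrays, with colours capped at 2 in either direction. The blue column is array 2 of the 6-week sham group, where 30 of 34 members are at their lowest; *Irf1*, *Zbp1* and *Eif2ak2* are nearly white there, and the dark red cell is *Ifi44* on array 4 of the same group.

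**Figure D2:**
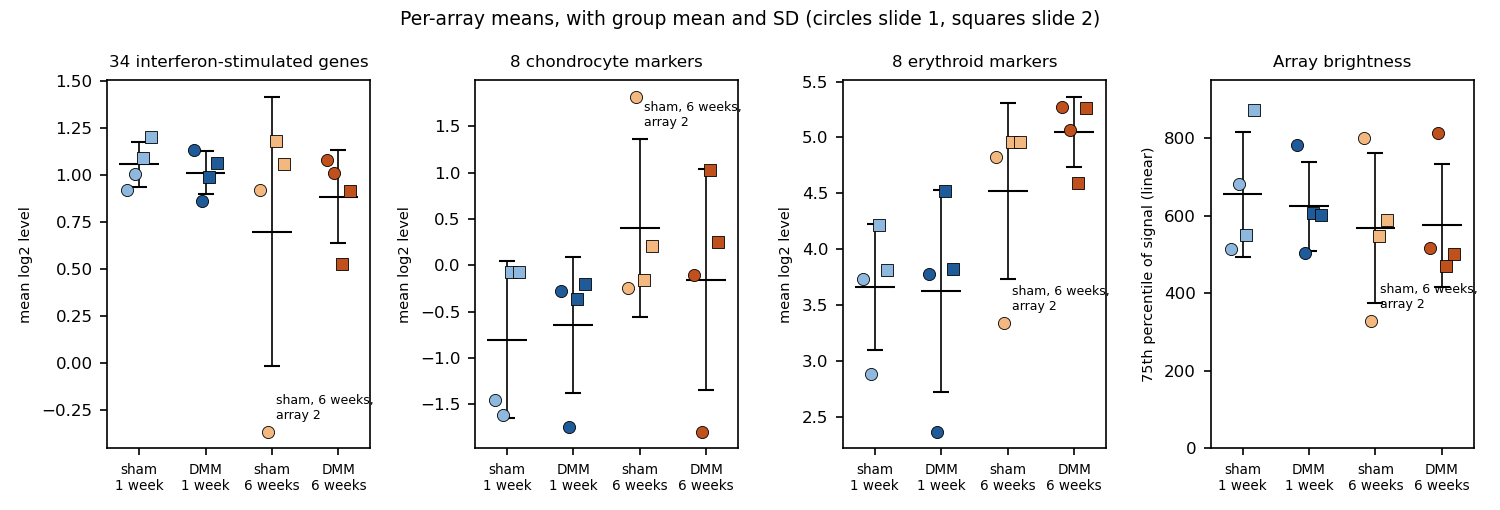
Points are arrays (circles slide 1, squares slide 2), horizontal bars group means and vertical bars SD (n = 4), for the mean log2 level of the 34 members, of 8 chondrocyte and of 8 erythroid markers, and for the 75th percentile of signal on a linear scale from 0. Array 2 of the 6-week sham group is the lowest point for the members (-0.36) and for brightness (329) and the highest for chondrocyte markers (1.82).

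At 1 week after surgery, no member was found to differ between DMM and sham. Of the 34 members 14 were higher and 20 lower in DMM, with a median difference of -0.03 (0.00 over all genes tested, of which 50.8% were higher). No gene passed the adjusted threshold in limma's test (0% of 28251), 273 genes (0.966%) had an unadjusted p under 0.05, and 0 of these were members (514 genes, 1.82%, and 0 members in the fit without the low 6-week sham array). Estimates ran from -0.80 to 0.28. The 95% interval of the difference lay inside 1 log2 unit, a 2-fold change, in either direction for 25 members, so larger changes of those genes lie outside their intervals, while for 9 members the intervals allow them. The intervals use 1 spread shared by the 4 groups, so the low 6-week sham array enters them too. For *Mx1* the SD was 0.15 in sham and 0.15 in DMM mice at 1 week, against 1.27 in 6-week sham mice. Its 1-week interval ran from -0.81 to 1.01.

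*Cxcl10*, a chemokine that attracts activated T cells, had the lowest estimate. Its levels were -1.41, -1.38, -0.18 and -0.98 on the sham arrays and -1.02, -2.50, -1.68 and -1.95 on the DMM arrays. Although all 4 DMM arrays lay below the sham mean, the groups overlapped, and the difference was -0.80 ± 0.64 (SE, limma adjusted p = 1.00) with an interval from -2.17 to 0.57. *Ifit3*, an RNA-binding tetratricopeptide protein, was at 0.08, -0.04, 0.12 and -0.26 in sham and 0.37, -1.04, -0.75 and -0.37 in DMM mice. DMM array 1 held its highest level of the 16 arrays, so the groups overlapped widely (difference -0.42 ± 0.40, SE). *Ifit1*, which binds RNA that lacks host cap methylation, was at -2.06, -1.78, -1.94 and -2.10 in sham and -1.53, -2.63, -2.43 and -2.33 in DMM mice (difference -0.26 ± 0.42, SE). For both Ifit genes DMM array 1 was the highest of its group and DMM array 2 the lowest.

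*Irf1*, a transcription factor induced most strongly by interferon-gamma, was the member whose groups did not overlap. Its sham levels were 3.32, 3.39, 3.49 and 3.32 and its DMM levels 3.22, 3.13, 3.04 and 3.17, a difference of -0.24 ± 0.14 (SE) with an interval from -0.54 to 0.05. That is 1 of 34 members (2.94%), against 1.1% of all genes tested. The second *Irf1* probe gave -0.14.

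Among higher estimates, *Ifitm1*, a membrane protein that blocks virus entry, was at 2.24, 2.75, 2.02 and 3.57 in sham and 2.44, 3.52, 2.65 and 3.09 in DMM mice (difference 0.28 ± 0.39, SE). *Zbp1*, a sensor of Z-form nucleic acid that can trigger necroptosis, was at 0.25, 0.36, 0.02 and 0.51 in sham and 0.35, 0.65, 0.25 and 0.78 in DMM mice (difference 0.22 ± 0.19, SE). *Usp18*, which removes Isg15 from proteins and dampens receptor signalling, was at -0.31, -0.35, -0.56 and -0.45 in sham and -0.01, -0.24, -0.41 and -0.36 in DMM mice (difference 0.16 ± 0.31, SE). All 4 DMM arrays were above the sham mean for *Usp18*, but the groups overlapped.

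At 6 weeks after surgery, the direction of the members turned on the sham array named above. With all 16 arrays 29 of 34 members were higher in DMM, with a median difference of 0.19. Without that array 6 of 34 were higher and the median was -0.12. Over all genes tested 46.5% were higher with it and 54.2% without it. The counts also rest on the brightest probe of each gene. Other passing probes of the members went both ways with all 16 arrays, with more of them lower than higher in DMM. Those of *Parp14*, *Stat2* and *Ifi27l2a* gave -0.57, -0.29 and -0.22, and those of *Ifi35* and *Ifih1* gave 0.35 and 0.28. No gene passed the adjusted threshold in limma's test (0%), 220 genes (0.779%) had an unadjusted p under 0.05, and none of these was a member. Groups did not overlap for 0 members, against 0.499% of all genes, and for 0 members against 3.68% without that array. The 16 arrays lay on 2 slides with 2 arrays of each group on each. The median over members was 0.75 on slide 1, which held the low sham array, and -0.30 on slide 2, which held the low DMM array, and 1 of 34 members (*Ifitm1*) had the same sign on both.

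*Rtp4*, a receptor-transporting protein that binds viral RNA, had the highest estimate and shows the pattern. Its levels were 1.06, -1.77, 1.36 and 1.05 on the sham arrays and 1.44, 1.60, 0.35 and 1.11 on the DMM arrays. The difference of 0.70 ± 0.54 (SE, limma adjusted p = 1.00) became -0.03 ± 0.30 without sham array 2. *Rsad2* (viperin, which makes a chain-terminating nucleotide) was at 3.06, 0.52, 2.93 and 2.91 in sham and 3.52, 3.23, 2.28 and 3.06 in DMM mice. Its difference of 0.67 ± 0.51 (SE) became 0.05 ± 0.37 without sham array 2, and its second probe gave -0.03 with all arrays. *Ifitm1* was at 2.26, 0.78, 2.45 and 2.36 in sham and 2.68, 2.95, 2.55 and 2.30 in DMM mice. All 4 DMM arrays were above the sham mean, and the difference was 0.66 ± 0.39 (SE), or 0.26 ± 0.33 without sham array 2.

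*Ifi44*, a cytoplasmic protein of uncertain function, had the lowest estimate, with 1 other array standing apart. Its sham levels were -3.67, -4.51, -3.58 and -0.04 and its DMM levels -3.54, -3.87, -4.51 and -3.69. Sham array 4 stood far above the other sham arrays. The difference was -0.95 ± 0.69 (SE, fold 1.94) with an interval from -2.43 to 0.53, and the second, dimmer probe gave -0.67. Without sham array 4 the difference was 0.01 ± 0.36 (SE). *Irf1* (-0.07 ± 0.14, SE) and *Eif2ak2*, the RNA-activated kinase that halts translation (-0.06 ± 0.16, SE), had the next lowest estimates and the narrowest intervals, from -0.36 to 0.23 and from -0.39 to 0.28. At 6 weeks *Irf1* was at 3.01, 3.31, 3.50 and 3.21 in sham and 3.21, 3.21, 3.18 and 3.16 in DMM mice. *Eif2ak2* was at 0.31, 0.19, 0.43 and 0.12 in sham and 0.49, 0.38, -0.06 and 0.02 in DMM mice. Both genes kept to a narrow band on every array, the low sham array included.

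Without sham array 2, *Mx1* (a dynamin-like GTPase) had a difference of -0.57 ± 0.19 (SE, limma unadjusted p = 0.00841, adjusted p = 1.00), against 0.04 with all 16 arrays. Its sham levels were -1.42, -3.42, -0.59 and -0.93 and its DMM levels -1.76, -1.58, -1.51 and -1.34. At 1 week *Mx1* was at -1.51, -1.17, -1.29 and -1.24 in sham and -1.17, -1.42, -1.14 and -1.09 in DMM mice. *Ifi44* (-1.47) was the other of the 2 members with an unadjusted p under 0.05 in that fit, in which 454 genes (1.61%) had one. The second *Mx1* probe gave -0.26 at 1 week and -0.39 at 6 weeks with all 16 arrays, against 0.10 and 0.04 for the probe used.

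By role, the 6-week medians were higher with the low array than without it in each of the groups given here. The membrane restriction factors *Bst2*, *Ifitm1* and *Ifitm3* had a median of 0.54 with it and 0.06 without it. For the enzymes and effectors *Rsad2*, *Cmpk2* and *Samd9l* the medians were 0.47 and -0.03. For the GTPases *Mx1*, *Mx2*, *Gbp2* and *Gbp3* they were 0.03 and -0.30, and for the transcription factors *Irf1*, *Irf7*, *Irf9* and *Stat2* 0.09 and -0.11. The difference between the DMM effects at the 2 times was past the adjusted threshold for no gene (0%, 193 genes or 0.683% at an unadjusted p under 0.05, none a member). Without the low array it was again 0 genes, with 426 (1.51%) at an unadjusted p under 0.05 and among them 1 member, *Mx1* (-0.67 ± 0.25, SE). The median over members in that difference went from 0.20 to -0.09. Over both times together DMM minus sham also gave 0 genes (0%, 265 genes or 0.938% at an unadjusted p under 0.05, none a member). It gave 0 genes without the low array too, with 509 (1.8%) at an unadjusted p under 0.05 and among them 1 member, *Cxcl10* (-0.75 ± 0.31, SE, against -0.36 with all arrays). With all arrays the interval lay inside 1 log2 unit in either direction for 28 of 34 members, and the spread behind it includes the low array.

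**Figure D3:**
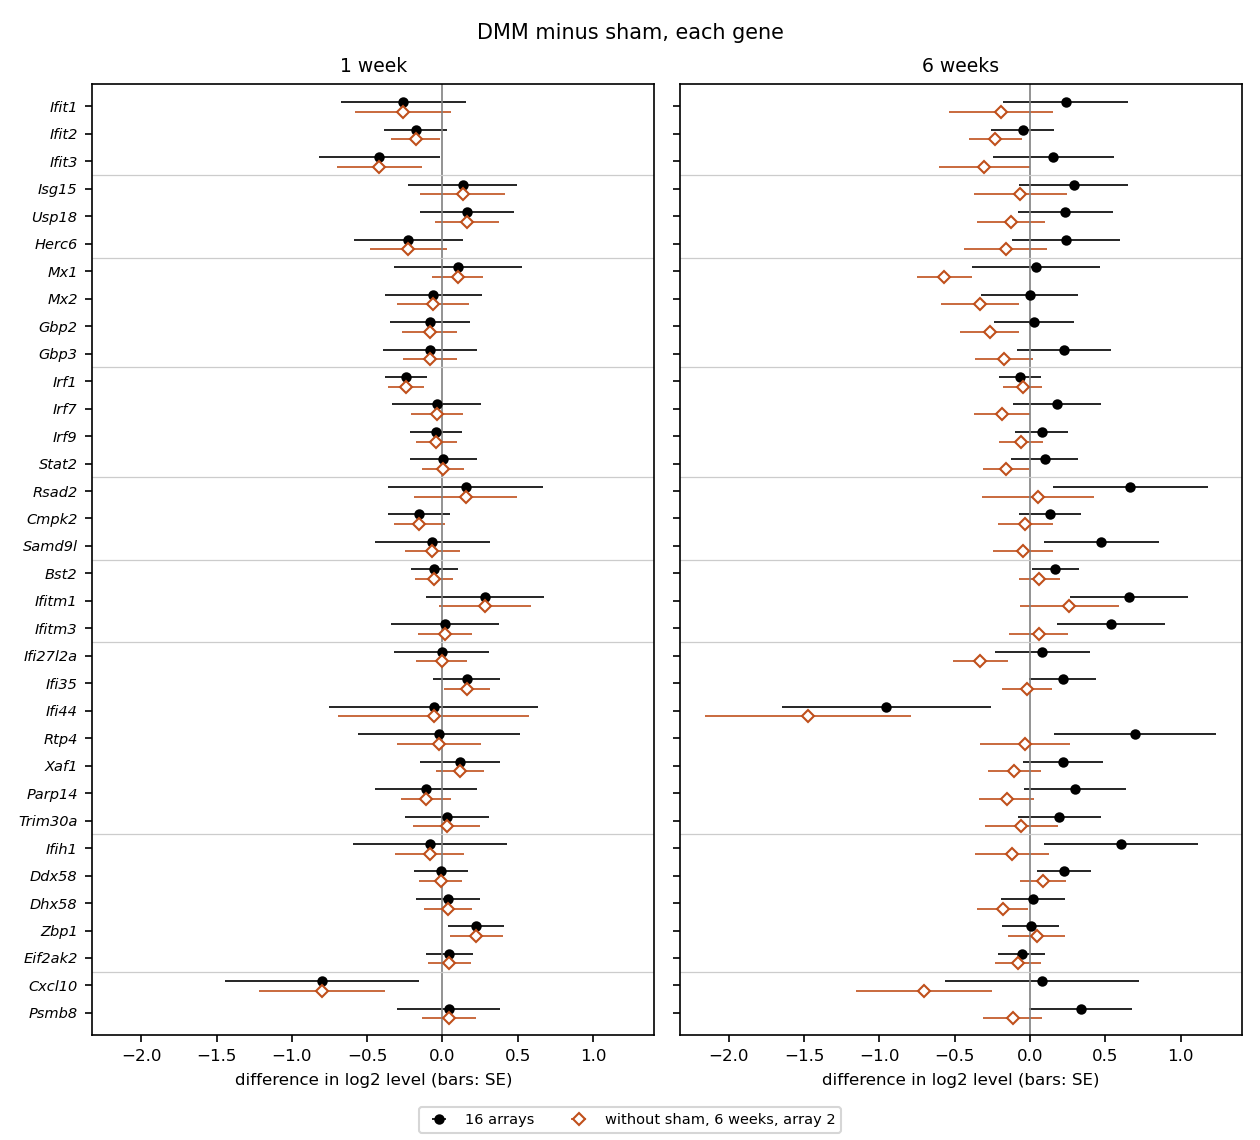
Each point is the DMM minus sham difference in log2 level of a member (rows, grouped by role) with its standard error, at 1 week and at 6 weeks; filled circles use all 16 arrays and open diamonds leave out array 2 of the 6-week sham group. At 6 weeks the circles lie mostly right of 0 (29 of 34) and the diamonds mostly left of it (28 of 34).

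Between 1 and 6 weeks, with sham and DMM mice averaged, the members lay mostly lower at the later time, but none passed the test with all 16 arrays. Of the 34 members 29 were lower and 5 higher, with a median of -0.26 (0.04 over all genes, of which 55.7% were higher). Limma's test called 247 genes (0.874%), 181 higher and 66 lower, and 0 members. Members with an unadjusted p under 0.05 numbered 7, against 15.8% of all genes, and 8 without the low sham array, against 23.3%. Without the low sham array the median over members was -0.10, 24 were lower (52.0% of all genes), and 1502 genes (5.32%) were called, among them 2 members (5.88%): *Ifi27l2a*, lower, and *Rsad2*, higher. The 247 calls fell to 3 or fewer on leaving out any 1 of 12 of the 16 arrays. The medians within the slides were -0.30 and -0.20.

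*Trim30a*, a ubiquitin ligase family member that restrains inflammatory signalling, had the lowest adjusted p. Its levels at 1 week were 1.75, 2.09, 1.67 and 1.98 in sham and 1.54, 2.60, 1.57 and 1.90 in DMM mice. At 6 weeks they were 1.49, 0.32, 1.30 and 1.19 in sham and 1.52, 1.53, 1.07 and 0.96 in DMM mice. Within each operation every 6-week array was below every 1-week array. The difference was -0.72 ± 0.20 (SE, fold 1.64, limma adjusted p = 0.0861), and -0.59 ± 0.16 without the low array (adjusted p = 0.0523). Its other probes gave -0.62 and -0.34.

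*Ifi27l2a*, a small membrane protein and a strongly interferon-induced transcript, was at 4.82, 4.86, 4.48 and 4.64 in sham and 4.89, 4.60, 4.42 and 4.86 in DMM mice at 1 week. At 6 weeks it was at 4.14, 2.70, 4.58 and 4.30 in sham and 4.33, 4.14, 3.75 and 3.82 in DMM mice. The DMM groups did not overlap and the sham groups did. The difference was -0.73 ± 0.22 (SE, fold 1.66, limma adjusted p = 0.112). It fell by 0.52 ± 0.13 without the low array (adjusted p = 0.0344), and its second probe gave -0.41 with all arrays.

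*Rtp4* had the largest difference, -0.99 ± 0.38 (SE, limma adjusted p = 0.210), or -0.62 ± 0.20 without the low array (adjusted p = 0.0887). Its 1-week levels were 1.28, 2.01, 1.60 and 2.19 in sham and 2.13, 1.35, 1.54 and 1.96 in DMM mice, so the times overlapped. *Ifitm3*, which traps entering viruses in endosomes, was at 4.72, 4.68, 4.90 and 5.32 in sham and 4.80, 5.01, 4.83 and 5.05 in DMM mice at 1 week. At 6 weeks it was at 4.55, 2.62, 4.48 and 4.61 in sham and 4.95, 4.76, 4.16 and 4.54 in DMM mice. The sham groups did not overlap for *Ifitm3*, and the DMM groups did (mean difference -0.58 ± 0.25, SE, limma adjusted p = 0.272). Without the low array the difference of *Ifitm3* was -0.34 ± 0.13 (SE, adjusted p = 0.137). *Bst2* (tetherin, which holds budding viruses at the cell surface), *Dhx58* and *Zbp1* were the other members with an unadjusted p under 0.05, at -0.29, -0.35 and -0.29, or -0.24, -0.25 and -0.31 without the low array. The second *Zbp1* probe gave -0.80 with all arrays.

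Groups of 4 did not overlap between the times for 3 of 34 members in sham mice (*Bst2*, *Ifitm3* and *Trim30a*, 8.82%), against 5.33% of all genes tested. In DMM mice the 3 members were *Ifi27l2a*, *Ifi44* and *Trim30a* (8.82%), against 5.23%, and in both operations these members were lower at 6 weeks. Without the low array 5 members did not overlap in sham mice (14.7%, against 17.4% of all genes): the same 3, lower, and *Rsad2* and *Isg15*, higher. No gene was past the adjusted threshold in either operation alone (0%), with 2020 genes at an unadjusted p under 0.05 in sham mice (7.15%, 6 members) and 2741 in DMM mice (9.7%, 3 members). Leaving out the low array gave 3262 such genes in sham (11.5%, 4 members) and 4202 in DMM mice (14.9%, 6 members), so which operation held more of these members turned on the low array. The median over members was -0.33 in sham mice, -0.01 without the low array, and -0.16 in DMM mice. In sham mice 32 of 34 members were lower with that array and 18 without it, and in DMM mice 24.

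*Rsad2* and *Isg15* ran the other way. *Rsad2* was at 1.88, 1.34, 2.63 and 1.95 in sham and 2.39, 1.15, 2.69 and 2.19 in DMM mice at 1 week, against the 6-week levels given above. Apart from the low sham array and DMM array 3 every 6-week array was above every 1-week array. The difference was 0.66 ± 0.36 (SE, fold 1.58, limma adjusted p = 0.416), and its second probe gave 0.78. Without the low array *Rsad2* rose by 0.97 ± 0.25 (adjusted p = 0.0437). *Isg15*, the ubiquitin-like protein that is joined to other proteins after interferon, was at 4.11, 3.41, 4.53 and 4.16 in sham and 4.16, 3.60, 4.58 and 4.39 in DMM mice at 1 week. At 6 weeks it was at 4.56, 3.32, 4.90 and 4.77 in sham and 5.14, 4.61, 4.01 and 4.94 in DMM mice. The difference was 0.41 ± 0.26 (SE, limma adjusted p = 0.486), and 0.59 ± 0.21 without the low array (adjusted p = 0.108).

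*Cmpk2*, a nucleotide kinase, had the next highest estimate of 0.13 ± 0.15 (SE), or 0.21 ± 0.12 without the low array. Its levels at 1 week were 1.79, 1.55, 1.81 and 1.71 in sham and 1.26, 1.71, 1.85 and 1.44 in DMM mice. At 6 weeks they were 1.79, 1.22, 2.07 and 1.75 in sham and 1.97, 1.82, 1.45 and 2.10 in DMM mice. *Cxcl10* (0.12) and *Herc6*, the mouse ligase that attaches Isg15 (0.10), were the other members with a higher mean at 6 weeks with all arrays. With the low array left out *Cxcl10* was at 0.52 ± 0.31 (SE) and *Herc6* at 0.30 ± 0.19 (SE). In that fit 10 members had a higher mean at 6 weeks, with *Ifih1* (0.14), *Ifi35* (0.06), *Ifit2* (0.04), *Samd9l* (0.04) and *Psmb8* (0.03) beside those 5.

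**Figure D4:**
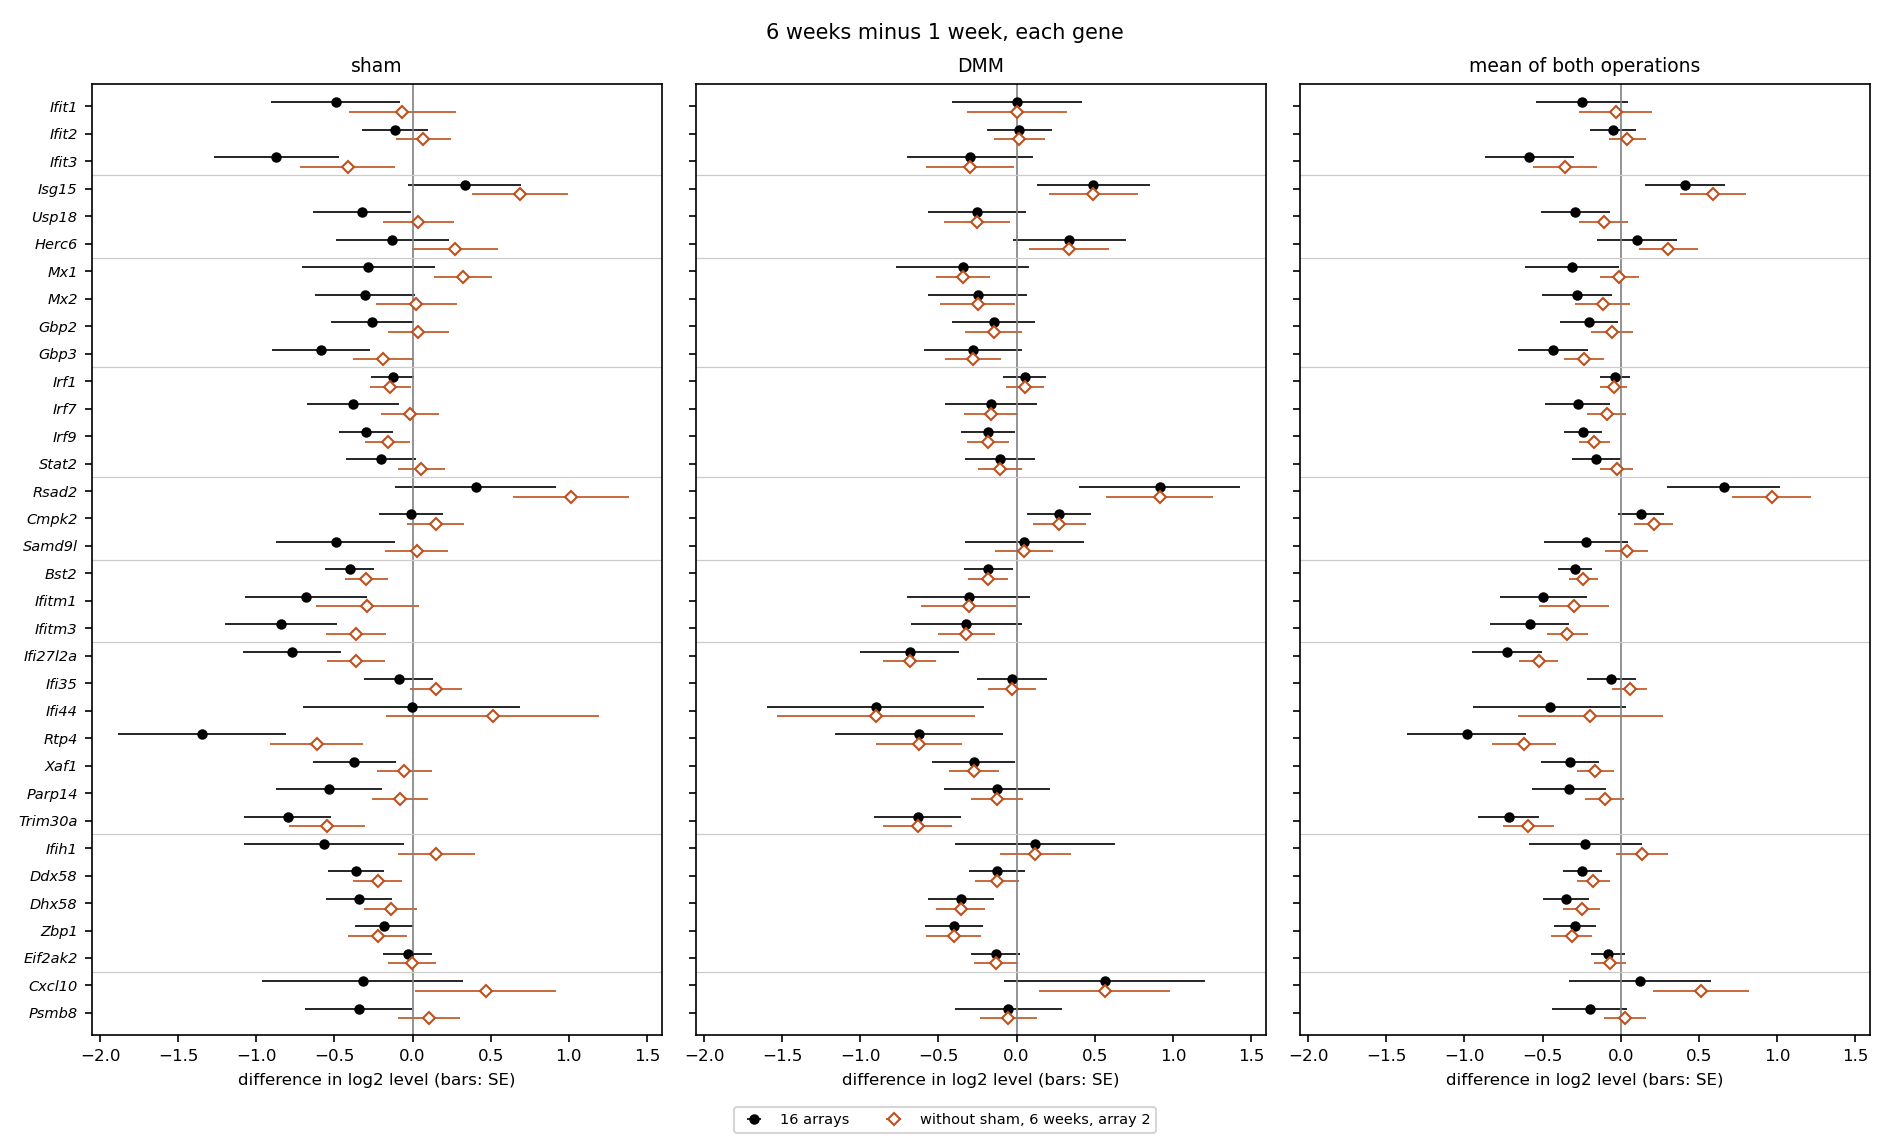
Each point is the 6-week minus 1-week difference in log2 level of a member (rows, grouped by role) with its standard error, in sham mice, in DMM mice and averaged over both operations; filled circles use all 16 arrays and open diamonds leave out array 2 of the 6-week sham group. *Rsad2* and *Isg15* lie right of 0 in all 3 panels, and *Trim30a*, *Ifi27l2a* and *Rtp4* lie left of it. Leaving the array out moves most points to the right in the sham and averaged panels, and leaves the differences in the DMM panel unchanged.

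The levels of *Rsad2* and *Isg15* followed the erythroid marker list from array to array. That list of 8 genes of maturing red cells (among them *Alas2*, *Slc4a1* and *Klf1*) had a mean level of 2.37 to 4.52 at 1 week and of 3.34 to 5.27 at 6 weeks. All 8 of its genes were higher at 6 weeks, with a median difference of 1.18, and 1 passed the test (1.41 and 7 without the low sham array). Over the 16 arrays *Rsad2* had r = 0.90 and rho = 0.94 with the list mean (permutation p = 1e-05, the smallest that 100000 resamples give, and 2e-05, 2-sided). *Isg15* had r = 0.89 and rho = 0.91 (permutation p = 2e-05 and 3e-05). These are the 2 of 374 relations (34 members with 11 marker lists) with a Benjamini-Hochberg adjusted permutation p under 0.05 for both r (0.00374) and rho (0.00561), and they were singled out after all 374 were computed. The 8 markers and the members share the array and its scaling. Arrays were permuted freely over groups and slides, so the permutation p also reflects the shared difference between the times. Relations within a time are given below as r only.

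Without the 2 arrays farthest from the median of the erythroid mean r was 0.88 for *Rsad2* and 0.85 for *Isg15*. Within the 1-week arrays r was 0.95 and 0.93, and within the 6-week arrays 0.98 and 0.95, or 0.84 and 0.90 without the low sham array. On slide 1 it was 0.90 and 0.91, and on slide 2 0.89 and 0.70. Without the low sham array, which lay below the other arrays at its erythroid level, r was 0.95 and 0.90. *Cmpk2*, a neighbour of *Rsad2* on chromosome 12, on the opposite strand, had r = 0.58 (permutation p = 0.0183, adjusted p = 0.211), with 0.19 within the 1-week arrays and 0.88 within the 6-week arrays (0.83 without the low array). *Ifi27l2a* had r = -0.20, and -0.67 without the low array. For the other members *Trim30a* had r = -0.49 (permutation p = 0.0532, adjusted p = 0.321), which was -0.87 without the low array, -0.89 within the 1-week arrays and 0.15 within the other 6-week arrays. The part of red-cell content in the time differences of *Rsad2* and *Isg15* was not tested.

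**Figure D5:**
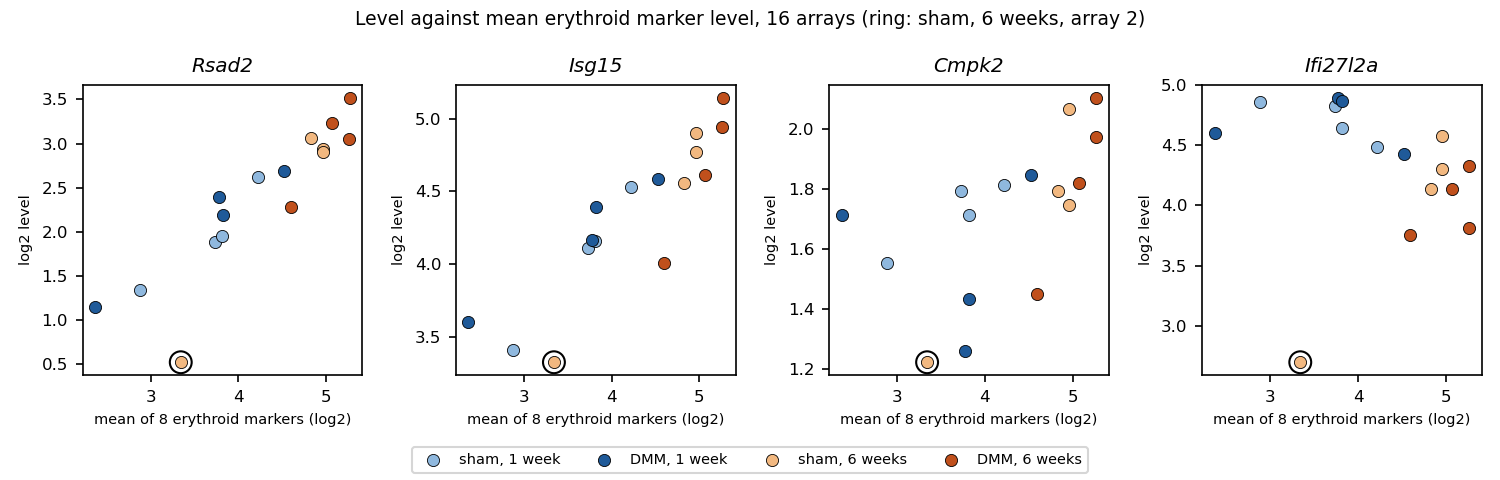
The x axes show the mean log2 level of 8 erythroid markers and the y axes the log2 level of *Rsad2*, *Isg15*, *Cmpk2* and *Ifi27l2a*, with 1 point per array coloured by group and a ring on array 2 of the 6-week sham group. *Rsad2* (r = 0.90) and *Isg15* (r = 0.89) climb with the erythroid mean through both the 1-week and the 6-week arrays, while *Ifi27l2a* does not (r = -0.20).

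The other 5 relations with an adjusted p under 0.05 for r missed it for rho. With the chondrocyte list these were negative, for *Trim30a* (r = -0.80), *Ddx58* (-0.78), *Irf9* (-0.75) and *Usp18* (-0.74), with adjusted permutation p of 0.0308, 0.0308, 0.0369 and 0.0369. Spearman's rho was weaker for these 4, from -0.58 to -0.68, with adjusted permutation p of 0.209 to 0.251. Without the low sham array r was -0.68, -0.64, -0.59 and -0.56. The remaining relation was that of *Rsad2*, r = 0.79 with the macrophage and monocyte list (adjusted permutation p = 0.0344, rho 0.66, adjusted 0.214), but -0.04 on slide 2.

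As a description of how far the 34 genes moved together, the median correlation over their 561 pairs was 0.62 across 16 arrays and 0.29 without the low sham array. *Irf7*, the factor that amplifies type I interferon production, was closest to the mean of the other members (r = 0.96, and 0.86 without that array), followed by *Parp14* (0.96 and 0.77) and *Xaf1* (0.95 and 0.80). Its levels were 3.58, 3.55, 3.86 and 3.65 in sham and 3.78, 3.47, 3.61 and 3.63 in DMM mice at 1 week, and 3.52, 2.18, 3.87 and 3.54 in sham and 3.91, 3.48, 3.04 and 3.39 in DMM mice at 6 weeks. Other probes of these 3 genes differed from the probes used. In DMM minus sham at 6 weeks those of *Irf7* and *Parp14* gave -0.06 and -0.57, against 0.18 and 0.30. The dimmer *Xaf1* probes gave -0.05 and -0.04, against 0.22. *Irf1* (0.06 and 0.41), *Zbp1* (0.16 and 0.34) and *Eif2ak2* (0.39 and 0.61) were farthest from the mean of the other members with all 16 arrays. *Rsad2* dropped from 0.56 to 0.07, *Trim30a* from 0.60 to 0.11, and *Ifitm1* from 0.66 to 0.02. The spread over 16 arrays was widest for *Ifi44* (SD 1.06), *Cxcl10* (0.94) and *Rtp4* (0.94), and narrowest for *Irf1* (0.14) and *Eif2ak2* (0.16).

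*Cxcl10* at 6 weeks was at -0.53, -3.66, 0.37 and -1.39 in sham and -1.03, -1.13, -2.02 and -0.71 in DMM mice. *Ifit1* was at -1.94, -3.75, -1.58 and -2.59 in sham and -1.95, -1.76, -3.20 and -1.99 in DMM mice. For both genes the low sham array and DMM array 3 were the lowest of their groups. *Ifit2*, on chromosome 19 with its neighbours *Ifit1* and *Ifit3*, stayed in a narrower band (SD 0.26). It was at -2.04, -2.21, -1.55 and -2.004 in sham and -2.12, -2.22, -1.97 and -2.21 in DMM mice at 1 week, and at -1.97, -2.61, -1.55 and -2.11 in sham and -1.995, -2.23, -2.22 and -1.995 in DMM mice at 6 weeks.

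*Ifi44* at 1 week was at -3.06, -2.80, -3.09 and -2.82 in sham and -1.91, -3.52, -3.43 and -3.15 in DMM mice, and DMM array 1 was the highest of its group, as for *Ifit1* and *Ifit3*. *Eif2ak2* at 1 week was at 0.26, 0.19, 0.28 and 0.46 in sham and 0.30, 0.42, 0.39 and 0.25 in DMM mice, so the operations overlapped. *Ifit3* at 6 weeks was at -0.39, -2.26, -0.08 and -0.85 in sham and -0.58, -0.66, -1.31 and -0.43 in DMM mice. The low sham array and DMM array 3 were its lowest, and the same held for *Usp18*. *Usp18* at 6 weeks was at -0.59, -1.83, -0.12 and -0.43 in sham and -0.17, -0.16, -1.22 and -0.49 in DMM mice. *Zbp1* at 6 weeks was at 0.11, 0.22, 0.19 and -0.12 in sham and 0.36, 0.35, -0.18 and -0.12 in DMM mice, and there the low sham array was the highest of its group.

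Outside the members, the genes most like the member mean over the 16 arrays were *Irgm2* (r = 0.97, and 0.85 without the low sham array), *Rnf213* (0.96 and 0.81), *AK084490*, *9030425P06Rik*, *Trim30d*, *Thap1*, *Dnaja2* and *Slfn8* (r = 0.95 to 0.96). Of these *Irgm2*, *Rnf213*, *AK084490* and *9030425P06Rik* stayed among the 8 most alike without that array, joined by *Taf1a*, *Nudt2*, *Gm18852* and *Krt7* (0.77 to 0.79). The mean of 47 further interferon-stimulated genes had r = 0.96 with the member mean (0.81 without the low array), and that of 11 Oas genes 0.72 (0.49).

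The rest of the pathway gave few calls, and so did all genes tested. Of all genes 0.874% were called between the times, averaged over both operations, and 0% in every other comparison. Without the low sham array these shares were 5.32% and 0%. Of 18 interferon ligand genes on the array, 13 were tested and none was called in any of the 7 comparisons, with or without the low sham array. *Ifnb1* was above background on 1 array, while 10 of the 18 ligand genes had a probe above background on all 16. The Ifna genes are near-identical copies whose probes may share signal. *Ifnl3* had the smallest ligand p between the times (0.54 ± 0.15, SE, limma adjusted p = 0.0949). None of 6 receptor genes was called with all arrays, with *Ifngr2*, the signalling chain of the interferon-gamma receptor, at -0.40 ± 0.10 (SE, limma adjusted p = 0.0764) at 6 weeks against 1 week. It was called without the low array, at -0.39. None of 9 genes of signalling and feedback below the receptors was called. *Socs3*, a feedback inhibitor of cytokine receptors, was at -0.66 ± 0.23 (SE) between the times. None of 16 upstream sensing genes was called, with *Cgas*, the cytosolic DNA sensor, at -0.34 ± 0.13 (SE). Of the 47 further interferon-stimulated genes none was called, and 34 were lower at 6 weeks (72.3%, against 44.3% of all genes). Without the low sham array 28 were lower (59.6%, against 52.0%), the median went from -0.17 to -0.06, and 1 (*Pml*, higher) was called.

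The Oas family, enzymes that make the 2-5A signal that activates RNase L, differed in its count of calls. Between the times 4 of its 11 tested genes were called, all lower, against 0 of 34 members. The Oas calls were lost in several settings: 0 Oas genes were called with median scaling (lowest adjusted p 0.0537 in limma's test), with no filter on dim probes (0.0556), and on leaving out any 1 of 12 of the 16 arrays. Without the low sham array 4 Oas genes and 2 members were called. *Oas2* fell by 1.54 ± 0.24 (SE, limma adjusted p = 0.0347), *Oas1a* by 1.16 ± 0.22 (adjusted p = 0.0359) and *Oasl2* by 0.96 ± 0.18 (adjusted p = 0.0347), with -1.40, -0.99 and -0.86 without the low sham array. Over all settings these estimates ran from -1.67 to -1.40, from -1.25 to -0.99 and from -1.07 to -0.86. The lowest Oas adjusted p in limma's test was 0.0973 or less in every setting. Whether the members and the Oas genes differ from each other in this change was not tested.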

How the data were processed

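The 16 1-colour arrays were scanned and read with Agilent Feature Extraction 10.7.3.1, per the file headers, and the authors deposited the processed signal (intensity, background-subtracted and detrended, low spots replaced by surrogates: 14.3% of the spots used) and flags for background, saturation and outliers. Here log2 of that deposited intensity minus each array's 75th percentile was taken, control and outlier spots were left out, spots of a probe were averaged, and probes had to be well above background on at least 4 of 16 arrays. The brightest probe stood for a gene. Names came through accessions or symbols in RefSeq. The authors' deposited value table, whose log2 values run from -1.67 to 20.4 with array medians of 7.24 to 7.34 and correlate at 0.989 to 0.994 with the scanner values, was an alternative; the submitters' processing notes name limma 3.20.9, and how the table was normalized is not stated there.

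R 4.3.3 and limma 3.58.1 (lmFit, eBayes, 12 residual and 3.01 prior degrees of freedom, 2-sided) fitted 4 group means and 7 contrasts. On simulated data for DMM minus sham at 1 week the fit recovered 30% of 50 changes of 1 log2 unit, 72% of 2, 92% of 3 and 96% of 4 among 28251 genes. Changes of every size were planted together in independent noise, so these rates need not hold for the measured arrays. The number of arrays limits the precision: the median SE was 0.30 for 4 against 4 arrays and 0.21 for 8 against 8. Intervals are 95%. Marker relations used permutation tests in Python with numpy.

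Groups came from the sample titles, and arrays are numbered by record order. Values on every array are given for members with the highest and lowest 3 mean levels, the 3 largest differences each way in 3 comparisons, the largest 3 and smallest 2 SDs, and any call; *Mx1*, *Irf7* and the genes given for pathway lists add to these, and *Mx1* and *Irf7* were chosen after their values were seen. The members, pathway lists and marker lists were chosen with earlier results of these data known. Members with close paralogs (*Ifitm*, *Gbp*, *Mx* and *Trim30* genes) may share probe signal.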

Additional observations from a re-analysis of the deposited data

Results flagged for a closer look

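Each member and the member mean were checked for outlying arrays in each group of 4 (140 checks). In 13 the gap from an array to its nearest neighbour, as a share of the group's range, was above Dixon's 95% critical value. Chance alone gives about 1 in 20 per check. The checks share arrays and the members move together, so the count of 13 is not a measure of excess. In the 6-week sham group array 2 was the low one for 8 members: *Rsad2* (0.52), *Ifih1* (-3.38), *Gbp3* (-1.63), *Ifitm1* (0.78), *Ifitm3* (2.62), *Rtp4* (-1.77), *Parp14* (-0.25) and *Psmb8* (1.33). In the 6-week DMM group array 3 was the low one for *Ifit1* (-3.20) and *Samd9l* (2.08). In the 1-week DMM group array 2 was the high one for *Ddx58* (1.91) and the low one for *Gbp2* (-0.53). In the 1-week sham group array 4 was the high one for *Herc6* (-1.28).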

How the results depend on the processing

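The 16 arrays limit what can be seen, and 1 sham array at 6 weeks sets much of the picture. Within slide 1 and slide 2 the median over members in DMM minus sham at 6 weeks was 0.75 and -0.30, and in the difference of DMM effects 0.72 and -0.22; slide 1 holds the low sham array. For 6 weeks minus 1 week, mean of both operations, the count of 247 genes became 408 with normexp background correction, 0 with median scaling, 0 with no filter on dim probes (36827 genes), 451 with probes above background on all 16 arrays and 645 with the slide as a block. The count of members called became 1 with the authors' value table and 1 with the mean of probes, *Ifi27l2a* both times (-0.82 and -0.57). Leaving out 1 array at a time gave 0 to 1502 genes and 0 to 2 members in that comparison (695 genes without DMM array 3 at 1 week, 490 without DMM array 3 at 6 weeks, 1502 without the low sham array, 311 without sham array 3 at 1 week, and 3 or fewer without any 1 of the other 12 arrays), 0 to 1 gene for DMM minus sham at 6 weeks, 0 to 1 for sham and 0 to 27 for DMM between the times. The causes were not tested. The sign of the difference held under all alternatives, slides included, for 13 of 34 members in DMM minus sham at 1 week, for 1 at 6 weeks and for 21 between the times. No paired analysis was possible because no label ties a sham joint to a DMM joint, and the array numbers only follow the order of the records.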
